A study of Caenorhabditis elegans with 2 samples.

Results

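RNA polymerase II, TFIID and Mediator genes were examined for peaks of the nuclear receptor NHR-6 in the Caenorhabditis elegans genome. Members were chosen by name, as the protein-coding genes of the Ensembl WBcel235 annotation that start with rpb-, taf- or mdt-, together with ama-1. There were 49 members among 19973 protein-coding genes on the nuclear chromosomes: 12 polymerase II subunit genes, 17 TFIID genes and 20 Mediator genes. The naming rule uses no measured value, and the genes were taken up with earlier results of these data known.

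The assay was chromatin immunoprecipitation followed by sequencing (ChIP-seq) of 1 group with 2 biological replicates: whole L4 larvae, both sexes pooled, of strain OP90, genotype unc-119(ed3) III; wgIs90, with immunoprecipitation directed at eGFP-NHR-6. The labels describe the insertion as one that targets nhr-6. Both libraries carry it in the same unc-119 background, so there was no contrast between conditions, and a possible control library was not analysed here. The whole animal was used, so a peak cannot be placed in a tissue. NHR-6 is the worm relative of the NR4A nuclear receptors. In build ce11 the authors' relaxed lists held 26801 peaks for replicate 1, 30000 for replicate 2 and 30000 for both replicates pooled, and 2720 peaks passed their reproducibility threshold. Read depth is unknown from peak lists, and the intervals below cover the counting of genes only.

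RNA polymerase II transcribes protein-coding genes. TFIID, made of the TATA-binding protein and its associated factors (TAFs), helps place the polymerase at promoters. Mediator is a large complex that carries signals from DNA-bound factors, nuclear receptors among them, to the polymerase. These complexes serve transcription in every cell, which is why their genes are usually counted as housekeeping genes. C. elegans packs many such genes into operons, in which several genes on one strand share the promoter of the first.

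The sequences under 11 of the 15 member summits are shown first, because they carry the peaks on which the results rest. Each is the 101 bp centred on the summit, from the RefSeq sequence of WBcel235 (ce11), written 5′ to 3′ on the strand of the named gene. Capitals mark every match, on either strand, to any of 11 short motifs listed further below. The first 3 belong to polymerase II genes, the next 4 to TFIID genes and the last 4 to Mediator genes. The windows of rpb-3, rpb-7, taf-4 and mdt-6 are not shown; of these, rpb-7 and mdt-6 touched an annotated untranslated region.
rpb-11 (chrII:14059942-14060042, + strand): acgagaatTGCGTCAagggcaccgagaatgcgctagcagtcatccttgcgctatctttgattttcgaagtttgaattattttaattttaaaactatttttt
rpb-4 (chrII:7374327-7374427, + strand): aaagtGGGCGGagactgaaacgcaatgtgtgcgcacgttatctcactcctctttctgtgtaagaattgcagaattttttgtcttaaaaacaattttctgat
rpb-8 (chrIII:4918091-4918191, − strand): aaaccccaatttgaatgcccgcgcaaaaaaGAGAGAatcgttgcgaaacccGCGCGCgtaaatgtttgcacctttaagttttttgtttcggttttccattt
taf-12 (chrIII:11870150-11870250, − strand): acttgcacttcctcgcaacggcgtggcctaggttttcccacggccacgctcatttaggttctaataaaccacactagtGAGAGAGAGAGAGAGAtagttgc
taf-10 (chrV:4686858-4686958, + strand): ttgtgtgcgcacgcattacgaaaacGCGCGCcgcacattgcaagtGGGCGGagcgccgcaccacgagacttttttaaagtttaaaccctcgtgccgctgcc
taf-6.2 (chrIV:3694811-3694911, − strand): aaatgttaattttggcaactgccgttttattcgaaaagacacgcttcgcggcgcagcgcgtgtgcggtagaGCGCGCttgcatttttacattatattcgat
taf-3 (chrX:16332101-16332201, + strand): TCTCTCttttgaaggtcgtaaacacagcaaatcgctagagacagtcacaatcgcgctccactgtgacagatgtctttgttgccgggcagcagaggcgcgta
mdt-9 (chrIV:13386212-13386312, + strand): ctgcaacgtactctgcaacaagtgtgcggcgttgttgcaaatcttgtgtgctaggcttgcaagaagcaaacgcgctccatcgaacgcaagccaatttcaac
mdt-19 (chrIII:2597230-2597330, + strand): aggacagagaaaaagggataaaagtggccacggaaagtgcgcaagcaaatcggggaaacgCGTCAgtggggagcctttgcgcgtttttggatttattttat
mdt-1.2 (chrX:17151321-17151421, + strand): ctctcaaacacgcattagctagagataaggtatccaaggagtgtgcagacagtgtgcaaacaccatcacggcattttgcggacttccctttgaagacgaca
mdt-22 (chrII:10301104-10301204, + strand): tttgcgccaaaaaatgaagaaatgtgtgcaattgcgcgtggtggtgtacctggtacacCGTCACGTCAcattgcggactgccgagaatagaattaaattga

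A promoter summit was a peak summit in the stretch that begins 1000 bp before and ends 200 bp after a gene's annotated 5′ end. By this measure 15 of the 49 members (30.6%, Wilson 95% interval 19.5 to 44.5%) had a summit in the thresholded list, against 10.5% of all protein-coding genes. The genes were rpb-3, rpb-4, rpb-7, rpb-8 and rpb-11 among 12 polymerase II genes (41.7%, 19.3 to 68%), taf-3, taf-4, taf-6.2, taf-10 and taf-12 among 17 TFIID genes (29.4%, 13.3 to 53.1%), and mdt-1.2, mdt-6, mdt-9, mdt-19 and mdt-22 among 20 Mediator genes (25%, 11.2 to 46.9%). The intervals of the 3 families overlap each other. In this list their lower ends lie above the share of all genes, by the least for Mediator, and no test of the difference was made. In single replicates this did not hold for every family, as given below. When a summit was counted only for the protein-coding gene with the nearest 5′ end, the count was 10 of 49 (20.4%), against 7.68% of all genes. These were 4 polymerase II (33.3%), 4 TFIID (23.5%) and 2 Mediator genes (10%), so the Mediator share was then near that of all genes. With noncoding genes also in the choice of the nearest 5′ end it was 9 (18.4%), against 6.59% of all genes. In the stronger 1360 of the thresholded peaks it was also 9, against 6.07% of all genes.

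Each replicate alone gave similar counts over all members. Among the 2720 strongest peaks of replicate 1 on the nuclear chromosomes, 15 members (30.6%) had a promoter summit, against 9.99% of all genes. Among the 2720 strongest of replicate 2 there were 13 (26.5%), against 9.91% of all genes. By family, the share of all genes lay inside the TFIID interval in replicate 1 (17.6%, 6.19 to 41%) and in replicate 2 (23.5%, 9.56 to 47.3%). It also lay inside the Mediator interval in replicate 2 (20%, 8.07 to 41.6%). The lower end stayed above it for polymerase II in both replicates and for Mediator in replicate 1. Of the 15 members with a thresholded summit, 13 were among those found in replicate 1 alone and 11 among those found in replicate 2 alone. In the relaxed lists, which include background, 38 members (77.6%) had a promoter summit in the pooled list, against 41% of all genes. The relaxed list of replicate 1 held one for 35 members, against 38.8% of all genes, and that of replicate 2 for 36, against 41.9% of all genes. All 12 polymerase II genes had a summit in the pooled relaxed list (100%, Wilson 95% interval 75.8 to 100%), 16 of 20 Mediator genes had (80%) and 10 of 17 TFIID genes had (58.8%).

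**Figure D1:**
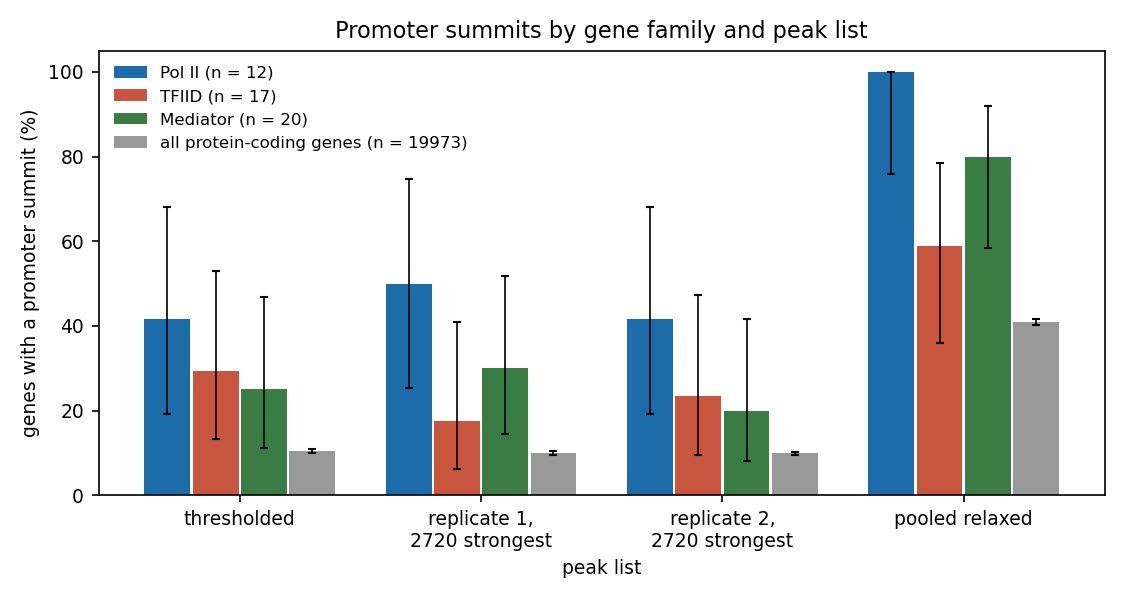
Share of genes with a promoter summit (%) in 4 peak lists, for the 12 polymerase II, 17 TFIID and 20 Mediator genes and for all 19973 protein-coding genes; error bars are Wilson 95% intervals. In the thresholded list the families stand at 41.7%, 29.4% and 25%, beside 10.5% of all genes.

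Among polymerase II genes, both members of each of a pair of small heterodimers had thresholded peaks. RPB4 and RPB7 form the stalk of the enzyme, and RPB3 and RPB11 the platform on which it assembles, as known from yeast. The rpb-11 peak (WBGene00012187, chrII:14059834-14060149) had a signal of 63.7 in the pooled data, rank 350 of 2720, with 22 in replicate 1 and 33.3 in replicate 2. The rpb-4 peak (WBGene00018391, chrII:7374219-7374534) had a pooled signal of 60.8, rank 400, with 35.9 in replicate 1 and 24.2 in replicate 2. These were the strongest of the family in the pooled list, and their order was turned round in replicate 1. Signal is the authors' own value for a peak, on a scale not given in the sources used here, so it is used only for ranking within a list. Beside each gene identifier stands the interval of its peak in ce11.

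The rpb-3 peak (WBGene00007971, chrI:8728480-8728795) had a pooled signal of 43.4, rank 1062, with 24.6 in replicate 1 and 19 in replicate 2. The rpb-7 peak (WBGene00021845, chrI:3032770-3033085) had 32.4, rank 1998, with 17.7 in replicate 1 and 13.5 in replicate 2. The fifth polymerase II gene with a peak, rpb-8 (WBGene00017830, chrIII:4917983-4918298), had 29.9, rank 2351, with 17.5 in replicate 1 and 8.95 in replicate 2. RPB8 is one of the subunits that polymerases I, II and III share. The weakest peaks of the family, at rpb-7 and rpb-8, ranked 3127 (rpb-7) and 6084 (rpb-8) in replicate 2, outside its 2720 strongest.

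The subunits that form the catalytic core had no thresholded promoter summit. These are ama-1, which encodes the largest subunit with its C-terminal repeat domain and is named for resistance to alpha-amanitin, and rpb-2, which encodes the second largest. The strongest pooled summit of ama-1 had a signal of 23.8, rank 3473, at 510 bp upstream. It stood at rank 2648 in replicate 1, within its 2720 strongest, and at rank 13780 in replicate 2. For rpb-2 the pooled summit had a signal of 5.30, rank 23891, and replicate 2 held none. The other 4 shared subunits, rpb-5, rpb-6, rpb-10 and rpb-12, also lacked a thresholded summit. So 1 of 5 shared subunits and 4 of the 7 remaining subunits had one, against 10.5% of all genes. These groups are small and were formed after values were seen. In replicate 2 alone, rpb-5 and rpb-10 were among the 2720 strongest peaks, and rpb-7 and rpb-8 were not. For rpb-9, a subunit that in yeast acts in transcript cleavage and fidelity, the pooled signal was 6.34, and replicate 1 held no summit.

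Several members lay just outside the threshold, the lowest signal of which was 27.5. The nearest inside it were taf-3 (pooled signal 28.7, rank 2527) and rpb-8. The nearest outside were taf-11.3 (27.3, rank 2769) and rpb-10 (27, rank 2810), followed by rpb-5 (24.8, rank 3235), ama-1 and mdt-26 (19.9, rank 4492). The peaks of rpb-5 and rpb-10 were among the 2720 strongest of replicate 2, at ranks 2355 (rpb-5) and 1731 (rpb-10), and not of replicate 1, at ranks 6534 (rpb-5) and 6085 (rpb-10). The mdt-26 peak was the other way about, at rank 1105 in replicate 1 and 4447 in replicate 2. At rpb-6 the pooled signal was 18.9 and at rpb-12 also 18.9, and replicate 1 held no summit for rpb-12. With a summit in the pooled list, 12 of 12 polymerase II genes were therefore spread from rank 350 to rank 23891.

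**Figure D2:**
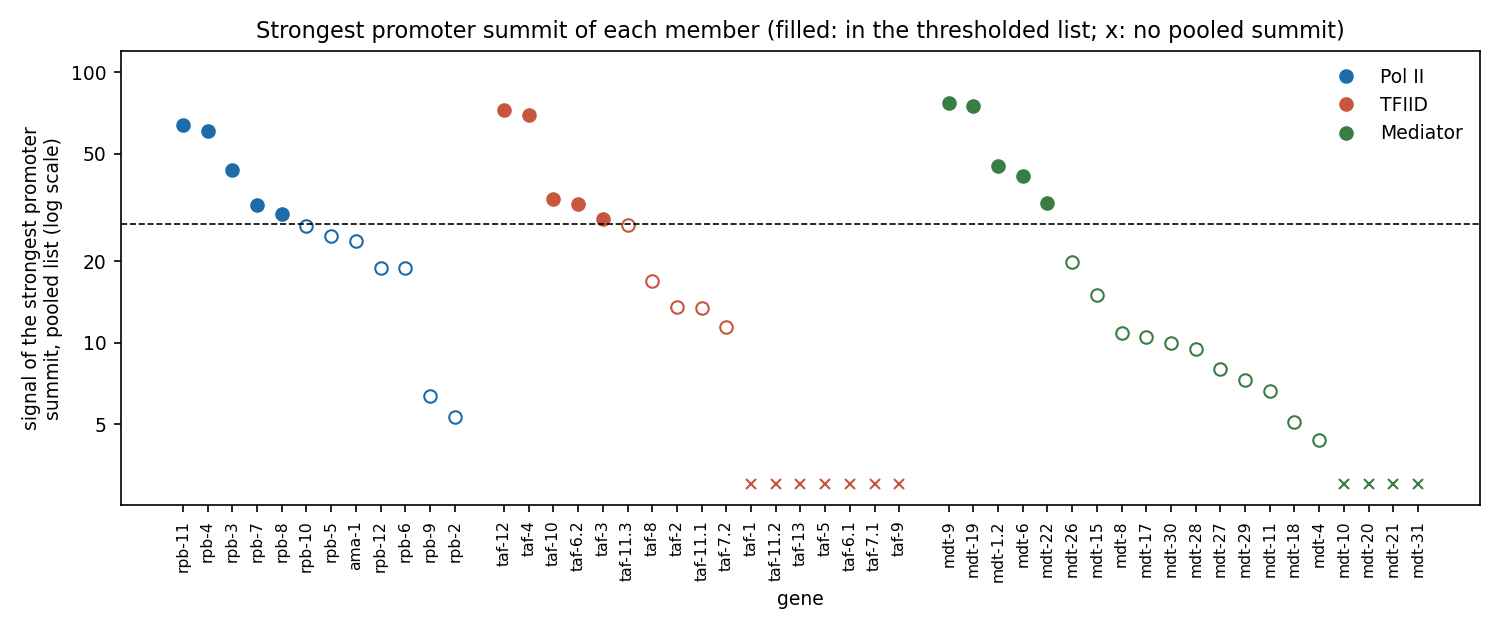
Signal of the strongest promoter summit of each of the 49 members in the pooled list (log scale), by family and in falling order; the dashed line is the lowest signal of the thresholded list, 27.5. Filled points are the 15 members in the thresholded list, open points the 23 with a weaker pooled summit, and crosses at the foot of the plot, where they mark no value, the 11 with none.

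Among TFIID genes the strongest peaks in the pooled list belonged to taf-12 and taf-4. Their products are partners through a histone fold in yeast and human TFIID. In replicate 1 the taf-6.2 peak (24.6) was stronger than the taf-4 peak (21.1). The taf-12 peak (WBGene00006396, chrIII:11870135-11870251) had a pooled signal of 72.4, rank 235, with 31.3 in replicate 1 and 41.3 in replicate 2. The taf-4 peak (WBGene00006385, chrI:382396-382711) had 69.3, rank 270, with 21.1 in replicate 1 and 44.8 in replicate 2. In both the replicate 2 rank was the higher, 191 at taf-12 and 138 at taf-4, against 444 at taf-12 and 1343 at taf-4 in replicate 1.

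The other TFIID peaks were weaker in the pooled list, and the replicates ranked some of them far apart. The taf-10 peak (WBGene00006392, chrV:4686750-4687065) had a pooled signal of 34.0, rank 1810, with 12.3 in replicate 1 and 16.7 in replicate 2. The taf-6.2 peak (WBGene00021363, chrIV:3694703-3695018) had 32.5, rank 1989, with 24.6 in replicate 1, where it ranked 915, and 8.06 in replicate 2, where it ranked 7069. TAF6 is another histone-fold subunit. The taf-3 peak (WBGene00006384, chrX:16331993-16332308) had 28.7, with 5.93 in replicate 1, where it ranked 9859, and 25.2 in replicate 2, where it ranked 842. Replicate 1 had a second summit in the taf-3 window, 665 bp upstream, with a signal of 9.44. TAF3 and TAF10 are histone-fold partners in yeast, as are TAF6 and TAF9, and taf-9 had no pooled summit.

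The gene of the largest TFIID subunit, taf-1, had no promoter summit in any list. Neither had taf-7.1, taf-11.2 or taf-13. Paralogous TAF genes differed in their peaks. Of taf-6.1 and taf-6.2, the first had a summit in replicate 1 alone, with a signal of 3.40 at rank 18373. Of the 3 taf-11 genes, taf-11.3 had a pooled signal of 27.3, taf-11.1 one of 13.4 and taf-11.2 none. Of the taf-7 genes, taf-7.2 had 11.4, and replicate 1 held no summit for it. The remaining TFIID genes with a summit in all relaxed lists were taf-8 (16.9) and taf-2 (13.6), and taf-5 and taf-9 had one in replicate 2 alone.

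Among Mediator genes, mdt-9 and mdt-19 had the strongest peaks of all 49 members in the pooled list and in replicate 1. In replicate 2 the peaks of taf-4 and taf-12 were stronger. The mdt-9 peak (WBGene00014938, chrIV:13386235-13386339) had a pooled signal of 76.9, rank 195, with 42.1 in replicate 1 and 35.3 in replicate 2. The mdt-19 peak (WBGene00007019, chrIII:2597122-2597437) had 75.0, rank 209, with 39.2 in replicate 1 and 37.8 in replicate 2. In replicate 1 they ranked 155 (mdt-9) and 204 (mdt-19), and in replicate 2 they ranked 324 (mdt-9) and 265 (mdt-19). Both summits lay nearer to the 5′ end of another gene, as given below.

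The mdt-1.2 peak (WBGene00007011, chrX:17151213-17151528) had 45.0, rank 976, with 27.5 in replicate 1 and 19.4 in replicate 2. The mdt-6 peak (WBGene00003164, chrV:7060364-7060679) had 41.3, rank 1181, with 25.9 in replicate 1 and 11.7 in replicate 2. The mdt-22 peak (WBGene00007022, chrII:10300996-10301311) had 32.8, rank 1951, with 15.2 in each replicate. Mediator genes were sorted by the place of their yeast and human counterparts, in groups chosen after values were seen. A thresholded summit was found at 3 of 10 head genes (mdt-6, mdt-19 and mdt-22) and 2 of 7 middle genes (mdt-1.2 and mdt-9). It was found at 0 of 3 tail genes. The share of all genes was 10.5%, at which 3 genes are too few to show a difference. These counts hold for genes with mdt- names; lin-25, a tail gene under another name, had one, as given below. The place of some metazoan subunits differs between accounts, and the groups are small.

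The tail gene mdt-15 encodes the subunit that works with the nuclear receptor NHR-49 in the lipid metabolism of C. elegans. Its pooled summit had a signal of 15, rank 6645, and replicate 2 held none. The other tail genes with mdt- names had 8.02 (mdt-27) and 7.28 (mdt-29). Among head genes, mdt-8 had 10.9, mdt-17 had 10.5, mdt-30 had 10, mdt-28 had 9.48, mdt-11 had 6.60 and mdt-18 had 5.07. Neither replicate list held a promoter summit for mdt-17 or mdt-18. Among middle genes, mdt-26 had 19.9 and mdt-4 had 4.36, and replicate 1 held no summit for mdt-4. No list held a promoter summit for mdt-21 or mdt-31, and mdt-10 and mdt-20 had one in replicate 1 alone. Over all members, 6 (12.2%) had no promoter summit in any list, against 44.7% of all genes.

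In both replicates, 9 of the 15 thresholded member peaks (60%) were among the 2720 strongest peaks, against 900 of all 1568 thresholded promoter peaks (57.4%). A further 4, at rpb-7, rpb-8, taf-6.2 and mdt-6, were so in replicate 1 alone, and 2, at taf-3 and taf-10, in replicate 2 alone. No member peak was outside the strongest of both, as 69 of the 1568 promoter peaks were (4.4%). The median pooled signal was 43.4 for the 15 member peaks (range 28.7 to 76.9) and 40.8 for the 1568. The highest signal among the 1568 was 199.2. The median signal and the share among the strongest of both replicates were thus near those of promoter peaks in general.

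**Figure D3:**
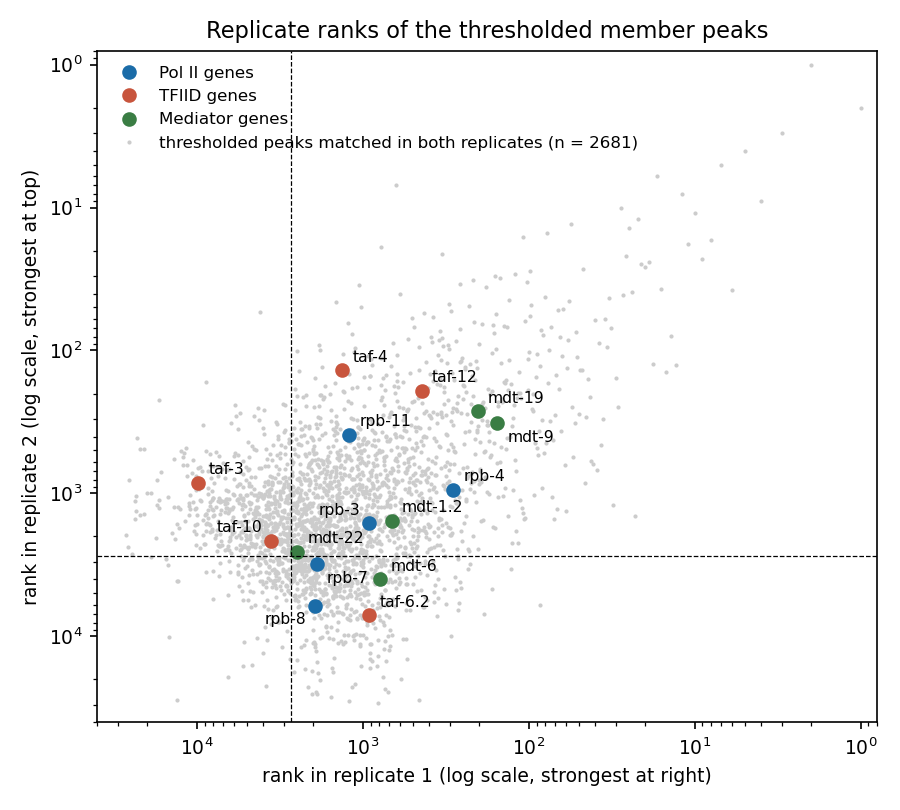
Rank of each thresholded peak in the relaxed list of replicate 1 (horizontal) and replicate 2 (vertical), both on log scales with the strongest at the right and top; coloured points are the 15 member peaks, grey points the 2681 thresholded peaks matched in both replicates, and dashed lines mark rank 2720. The points of mdt-9, mdt-19, taf-12 and rpb-4 lie among the strong peaks of both replicates, taf-3 at rank 9859 in replicate 1 and taf-6.2 at rank 7069 in replicate 2.

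Most member summits lay close upstream of the gene. The distance from summit to 5′ end was at most 300 bp for 12 of 15 members (80%), against 62.8% of the 2097 genes with a thresholded summit. Its median was 133 bp for members, against 232 bp for the 2097 genes. Intergenic sequence held 12 of the 15 summits. The matching share over all thresholded promoter summits was not counted, so no conclusion is drawn from this number. The rpb-3 summit lay in the noncoding gene C36B1.16, the mdt-22 summit in an intron of clpp-1 and the rpb-7 summit in the first coding exon of rpb-7, 10 bp downstream of the 5′ end. The exceptions in distance were taf-12 at 919 bp, mdt-6 at 898 bp and mdt-19 at 773 bp upstream. The nearest coding 5′ end to the taf-12 summit was still its own.

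A peak in the promoter of a member was often in the promoter of another gene. Of the 15 peaks, 10 (66.7%) lay in the window of another protein-coding gene as well, against 533 of the 1568 promoter peaks (34%). These shares are not like for like. The 34% counts each peak once, while member peaks were reached through genes, and a peak in several windows can be reached through more of them. No conclusion is drawn from the difference. The rpb-3 peak stood between rpb-3 and pas-4, a proteasome subunit gene on the opposite strand, at 126 bp from rpb-3 and 151 bp from pas-4. The rpb-4 peak was 118 bp from rpb-4 and 211 bp from mtch-1. At taf-4 the summit was 272 bp from taf-4 and 652 bp from pqn-59.

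For 5 members another coding 5′ end was nearer. The mdt-19 summit was 246 bp from apb-1, which encodes a subunit of clathrin adaptor complexes, and 773 bp from mdt-19. The mdt-6 summit was 8 bp from Y57E12AL.1 and 52 bp from Y57E12AL.6. The taf-6.2 summit was 74 bp from Y37E11AL.3 and 128 bp from taf-6.2. At mdt-9 the summit was 62 bp from Y62E10A.23, a gene on the same strand that overlaps mdt-9, and 118 bp from mdt-9. The rpb-7 summit was 7 bp from Y54E10BR.2, whose 5′ end lies within rpb-7 on the opposite strand. Peak lists do not tell which of the genes that share a window a peak belongs to.

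**Figure D4:**
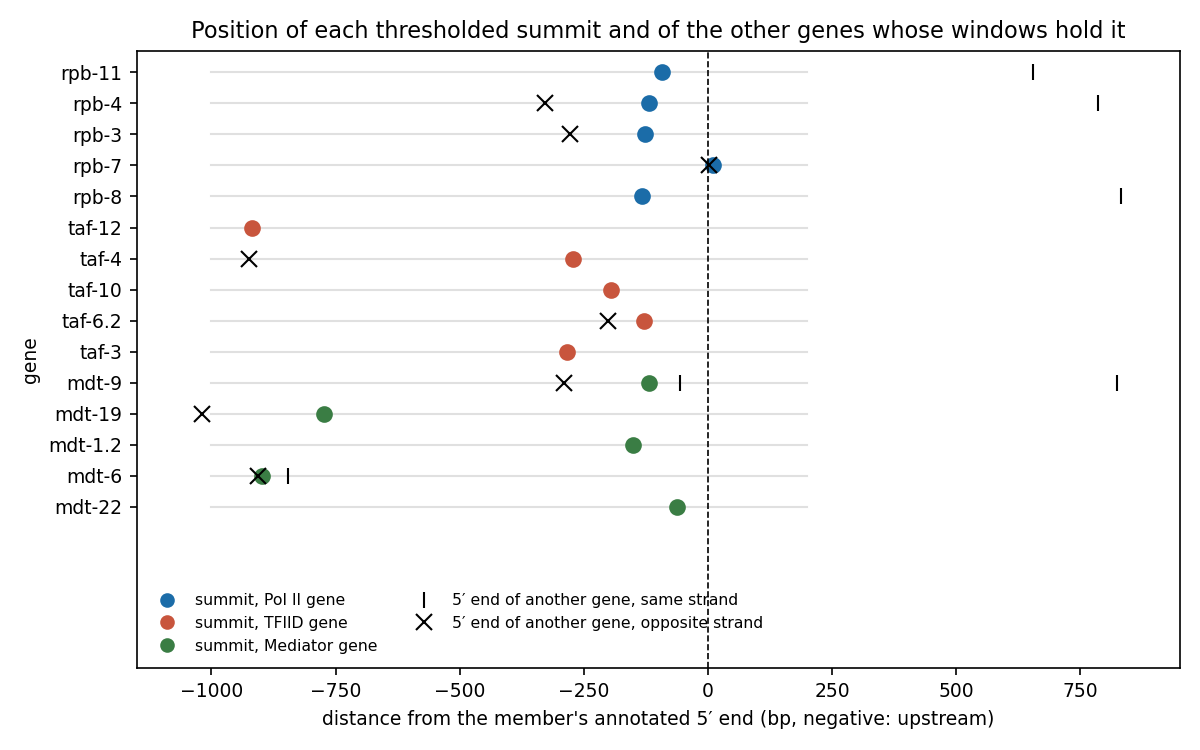
Position of the 15 thresholded summits (coloured points) relative to the annotated 5′ end of the member (dashed line, bp, negative upstream), with the 5′ ends of the other genes whose windows hold the same summit as bars (same strand) or crosses (opposite strand); the grey lines span the promoter window. Of the summits, 12 lie within 300 bp of the member, while those of taf-12, mdt-6 and mdt-19 lie 919, 898 and 773 bp upstream.

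Members were also sorted by what lies upstream of them. A gene was called close tandem when the nearest upstream coding gene on its strand ended less than 500 bp before it or overlapped it, as genes within operons do; operons themselves are not annotated in the sources used here. Of the 49 members 21 were close tandem (42.9%), against 20.8% of all genes, with 13 of 20 Mediator genes, 4 of 17 TFIID genes and 4 of 12 polymerase II genes. A thresholded summit was found at 3 of these 21 (14.3%, Wilson 95% interval 4.98 to 34.6%) and at 12 of the other 28 members (42.9%, 26.5 to 60.9%). Among all genes the shares were 7.35% of close tandem genes and 11.3% of the others. The 3 were rpb-8, mdt-6 and mdt-9, and the summits at mdt-6 and mdt-9 lay nearer to the upstream gene.

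A divergent neighbour was a coding gene on the opposite strand whose 5′ end lay at most 1000 bp upstream. Of 11 members with one, 6 had a thresholded summit (54.5%, Wilson 95% interval 28 to 78.7%), against 26.1% of the 3539 such genes in the genome. Among the 19 members that were neither divergent nor close tandem 8 had one (42.1%, 23.1 to 63.7%), against 7.23% of such genes in the genome. Among the 19 that were close tandem without a divergent neighbour 1 had one (5.26%, 0.935 to 24.6%), against 6.86%. Among close tandem genes without a divergent neighbour the member share was near that of all genes. In the divergent and the remaining class it was above it. For close tandem genes as a whole the member share was 14.3%, and the 7.35% of all such genes lies inside its interval (4.98 to 34.6%). Of the members behind that share, mdt-6 and mdt-9 also had a divergent neighbour. The difference between classes was not tested.

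For some close tandem genes without a peak of their own, the gene at the head of the run had one. This held for 4 of 18 such members (22.2%, Wilson 95% interval 9 to 45.2%), against 19.9% of 3856 such genes in the genome, so the share was near the background. The 4 were all Mediator genes, but so were 11 of the 18 (4 of 11, 36.4%, Wilson 95% interval 15.2 to 64.6%). The rest were 4 TFIID and 3 polymerase II genes, with 0 in each, and the intervals of the 3 families overlap. Upstream of mdt-11 the gene wip-1 had a peak of signal 84.9, rank 133, which was 2881 bp from mdt-11. Upstream of mdt-29, which overlaps it, pdr-1 had 50.3, upstream of mdt-17 prmt-1 had 47.8, and upstream of mdt-31 snpc-4 had 34.5. Outside the promoter windows, 3 members had a thresholded summit between 1000 and 2000 bp upstream: mdt-30 at 1654 bp, mdt-29 at 1772 bp and taf-11.3 at 1800 bp. The one upstream of mdt-29 is the pdr-1 peak already given. With the window begun 2000 bp upstream, 18 members (36.7%) had a summit, against 13.5% of all genes.

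**Figure D5:**
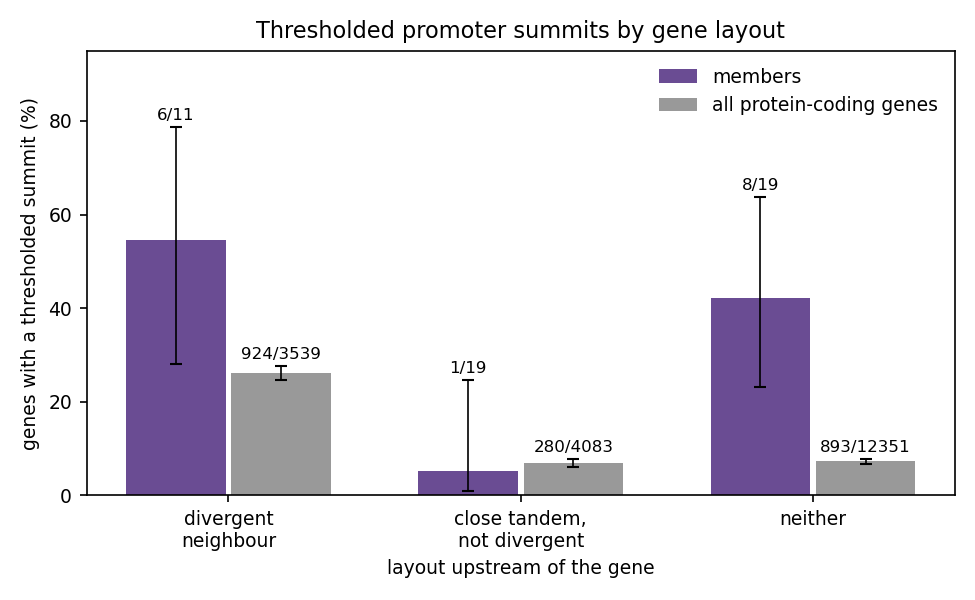
Share of genes with a thresholded promoter summit (%) by layout, for the 49 members and all protein-coding genes, with Wilson 95% intervals and counts above the bars. Members stand at 54.5%, 5.26% and 42.1% for genes with a divergent neighbour, close tandem genes without one, and genes that are neither, beside 26.1%, 6.86% and 7.23% of all genes.

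No match to the nuclear receptor letters searched was found at the member summits. The 101 bp windows were read on both strands. Of 15 member peaks, 0 held AAAGGTCA, the NR4A monomer site, and 0 held its 6-base core AGGTCA, which were at 0.735% and 3.71% of all 2720 thresholded summits. At those shares, 15 peaks are too few to show a difference. Likewise 0 held the AP-1 site TGACTCA (4.34% of all summits) or CACGTG (3.86%).

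GAGAGA was found at 3 of the 15 summits, those of rpb-8, taf-3 and taf-12, against 27.3% of all summits, and in the taf-12 sequence above it is part of a longer GA run. TGACG was at 3 (rpb-11, mdt-19 and mdt-22), against 19.6%, and it overlaps GACGCA in the rpb-11 sequence, the 1 member peak with that site (16.5% of all). GCGCGC was at 3 (rpb-8, taf-6.2 and taf-10), against 7.61%. The GC box core GGGCGG was at rpb-4 and taf-10 (5.48%), TATAAA at taf-4 (4.56%) and CGTCTC at rpb-7 (19%). At the summits of rpb-3, mdt-1.2, mdt-6 and mdt-9, the last the strongest member peak of the pooled list, none of the 11 motifs was found. GC content in the 101 bp was 46.5% ± 5.46 (SD, n = 15 peaks) at member summits and 45.3% ± 7.88 (SD, n = 2720) at all thresholded summits. A match describes these letters and is not shown to be a bound site.

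Genes that work with these complexes were counted in the same way, from lists drawn up by name. Of 19 general transcription factor genes, 3 had a thresholded promoter summit (15.8%, Wilson 95% interval 5.52 to 37.6%), against 10.5% of all genes. These were pqn-51 (signal 56.6), cdk-7 (54.6), which encodes the kinase of TFIIH, and gtf-2E2 (28), of TFIIE; tbp-1, which encodes the TATA-binding protein, had none. Of 7 Mediator genes with other names, 2 had one (28.6%, 8.22 to 64.1%): dpy-22 (36.6), the gene of MED12, and lin-25 (34.7), of the tail. Of 10 subunit genes of polymerases I and III, 2 had one (20%, 5.67 to 51%): rpac-19 (56.9) and rpoa-12 (45.2). The 10.5% of all genes lies inside the intervals of these 3 lists.

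Of 22 genes of elongation and of kinases and other factors acting on the polymerase tail, 6 had a thresholded summit (27.3%, Wilson 95% interval 13.2 to 48.2%), against 10.5% of all genes. The strongest were pafo-1 (66.2), of the Paf1 complex, and ccnk-1 (58.9), which encodes cyclin K, whose summit lay nearer to R11H6.5. Its partner kinase gene cdk-12 had 30.2. The others were rtfo-1 (32.1), cdc-73 (28.4), also of the Paf1 complex, and emb-5 (31.3), the worm gene of Spt6. The product of rtfo-1 acts with the Paf1 complex, and the rtfo-1 summit lay nearer to K09G1.1. In replicate 1 alone 8 of the 22 had a summit among the 2720 strongest peaks, against 9.99% of all genes. In replicate 2 alone 3 of the 22 had, against 9.91% of all genes, which is near the background.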

How the data were processed

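ChIP-seq peak lists of 2 biological replicates of 1 group were used. Per the deposited text listings, the authors derived a relaxed list from each replicate's alignment and 1 from both, each with a further file not used here, and from these a list filtered on irreproducible discovery rate; ce10 and ce11 versions were deposited. The aligner and peak caller were not given in the sources used here. For each peak, the deposited signal value and the −log10 q-value are the authors'; the scale of the signal is not given, and the −log10 q-value is 3.91 at all 15 member peaks, so it cannot rank them. Only ce11 lists were used, with the Ensembl release 115 annotation of WBcel235 and the RefSeq WBcel235 sequence, whose chromosome lengths hold every peak.

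Ranks and counts leave out the 28 mitochondrial peaks of replicate 1. Replicate values belong to the overlapping peak (1 bp or more) with the nearest summit, or, where there was no thresholded peak, to the strongest promoter summit. Python 3.11.15 was used with scipy 1.17.1, pandas 2.3.3 and numpy 2.4.6; matplotlib 3.10.9 drew the plots. The window count was checked on simulated summits. No test was run: there is 1 group, and genes are not replicates.

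Members, gene lists and motifs were chosen with earlier results of these data known. By the rule for named genes, every member was named, those with a thresholded summit with full values, and others with a summit in all relaxed lists with values for up to 6 per family; of the further lists, each gene with a thresholded summit was named. Values of members beyond that rule were added after they were seen. Subunit groups, layout runs and 5-base words were chosen after values were seen.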

Additional observations from a re-analysis of the deposited data

How the results depend on the processing

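The count of 15 members with a thresholded promoter summit, and the counts of 5 per family, were recomputed under 9 alternatives, the last 2 added after seeing the data, and 27 of the 36 recomputed counts stayed within 1.5 times the original. With the window from 500 bp before to 100 bp after the 5′ end, 12 members had a summit (24.5%), against 8.45% of all genes. Of 20 Mediator genes 3 kept a summit (15%), and mdt-6 and mdt-19 did not. In the stronger 1360 peaks, 9 members had one, 3 of polymerase II and 2 of TFIID, against 6.07% of all genes. Counted only for the nearest coding 5′ end, 2 of 20 Mediator genes had one (10%), against 7.68% of all genes, which is near the background. Counted for the nearest 5′ end of any biotype but piRNA, 9 members had one (18.4%), against 6.59% of all genes. Of these 3 were of polymerase II (25%) and 2 of Mediator (10%). Without replicate 1 or replicate 2 the counts ran from 13 to 15 for all members, 5 to 6 for polymerase II, 3 to 4 for TFIID and 4 to 6 for Mediator, and without replicate 2 the 3 TFIID genes were those other than taf-3 and taf-10. Within 100 bp of the summit 5 of the 11 motif counts moved by over 1.5 times. GAGAGA was at 5 of 15 member peaks (33.3%), against 42% of all 2720 thresholded summits, and TGACG at 5 (33.3%), against 30.9%. TATAAA was at 3 (20%, against 13.7%), CGTCTC at 3 (20%, against 27.8%) and GACGCA at 2 (13.3%, against 24%). The causes were not tested. No paired analysis was possible because there is 1 group. Read depth is unknown and limits how well any single peak is ranked.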

Other observations

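Short words shared by the member summits were counted after the sequences had been seen, as a description with no test. Of 512 words of 5 bases, with both strands of the 101 bp windows read, CGCAA was at 10 of the 15 member peaks (66.7%), against 26% of all 2720 thresholded summits. GCGCA was at 9 (60%), against 25%. Words rich in A and T, such as GAAAA (10 of 15, against 53% of all) and CAAAA (10 of 15, against 43.8%), were as frequent at member peaks. Words with the highest counts in 15 peaks were picked from 512, so the shares at member peaks are higher than those of words fixed beforehand would be.

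Members with a thresholded promoter summit lay on all 6 nuclear chromosomes. They were 3 of 10 members on chromosome I, against 12.6% of all genes there, 3 of 11 on II (10.2% of all genes), 3 of 12 on III (14.8%), 2 of 6 on IV (9.33%), 2 of 6 on V (8.47%) and 2 of 4 on X (9.59%).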
